A study of Mus musculus with 8 samples.

Results

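The genes that copy DNA, and the enzymes that supply its building blocks, were read in tumor-draining lymph nodes as a list of 44 members chosen by gene symbol: origin licensing factors, helicase activators, polymerases and primase, the clamp and its loader, nucleotide-supply enzymes, and the factors that rebuild chromatin behind the fork. Of these 44, 40 had a named probe on the array and 38 passed the detection filter and were tested, among 10543 named and tested genes. Orc1 and Orc2, both subunits of the origin recognition complex, were below the filter, and Gmnn, Pola1, Pole2 and Prim1 had no named probe and were not analysed here. The samples were nodes of C57BL/6 mice with subcutaneous B16 melanoma, females used at the age of 6 to 8 weeks. The tumor had been injected once, at an area of 30 to 40 mm2, with 3M-052, a TLR-7/8 agonist (4 mice), or with vehicle (4 mice), and the nodes were taken on day 4. Both groups carried the tumor, no group without tumor was analysed here, the dose is not stated for these arrays, and 1 label names the RNA as that of tumors where the others name lymph nodes. Each node was read on an Illumina mouse bead array, in which the brightness of the beads of a probe stands for the abundance of a transcript. Levels are given as normalized log2 intensity. They compare arrays for 1 probe and do not rank genes.

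Replication begins at origins, where the origin recognition complex, CDC6 and CDT1 load the MCM2 to MCM7 ring as an inactive helicase. In S phase, CDC7 kinase, MCM10, CDC45 and the GINS complex turn the ring into the moving helicase, and polymerases, the PCNA clamp and ribonucleotide reductase then carry out and feed the synthesis. Lymphocytes that have met antigen divide rapidly in a draining node, and most of these genes are transcribed under the control of E2F factors as a cell commits to S phase. Because whole nodes were measured, a change in the number of cells of a type and a change in RNA per cell cannot be told apart.

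The members were mostly higher in nodes of 3M-052-treated mice. The log2 fold change was above 0 in 37 of 38 members (38 of 38 with arrays centred on their medians), with a median of 0.71 against -0.0098 over all 19462 probes tested. After Benjamini-Hochberg adjustment over all these probes (limma, threshold 0.05), 10 of 38 members rose and 0 fell (26.3% of the members, against 2.81% of all probes higher and 2.29% lower). The 10 were Mcm10, Cdc45, Gins1, Gins2, Rfc3, Rfc5, Fen1, Rrm2, Tk1 and Tyms. At an unadjusted p under 0.05, 25 of 38 members were higher and 0 lower, against 1632 of all 19462 probes higher. Every 3M-052 array lay above every vehicle array in 11 members (28.9%, against 5.57% of all probes). With the replicate number as a block, which takes the difference within same-numbered arrays, 25 of 38 members passed, all higher (65.8%, against 6.33% of all probes). The labels do not say what these numbers mark, and the pairing was inferred from these same arrays. Beside these genes, the 4 tested genes of mitosis (Aurkb, Plk1, Cdk1 and Birc5) also rose, with a median log2 fold change of 1.31.

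**Figure D1:**
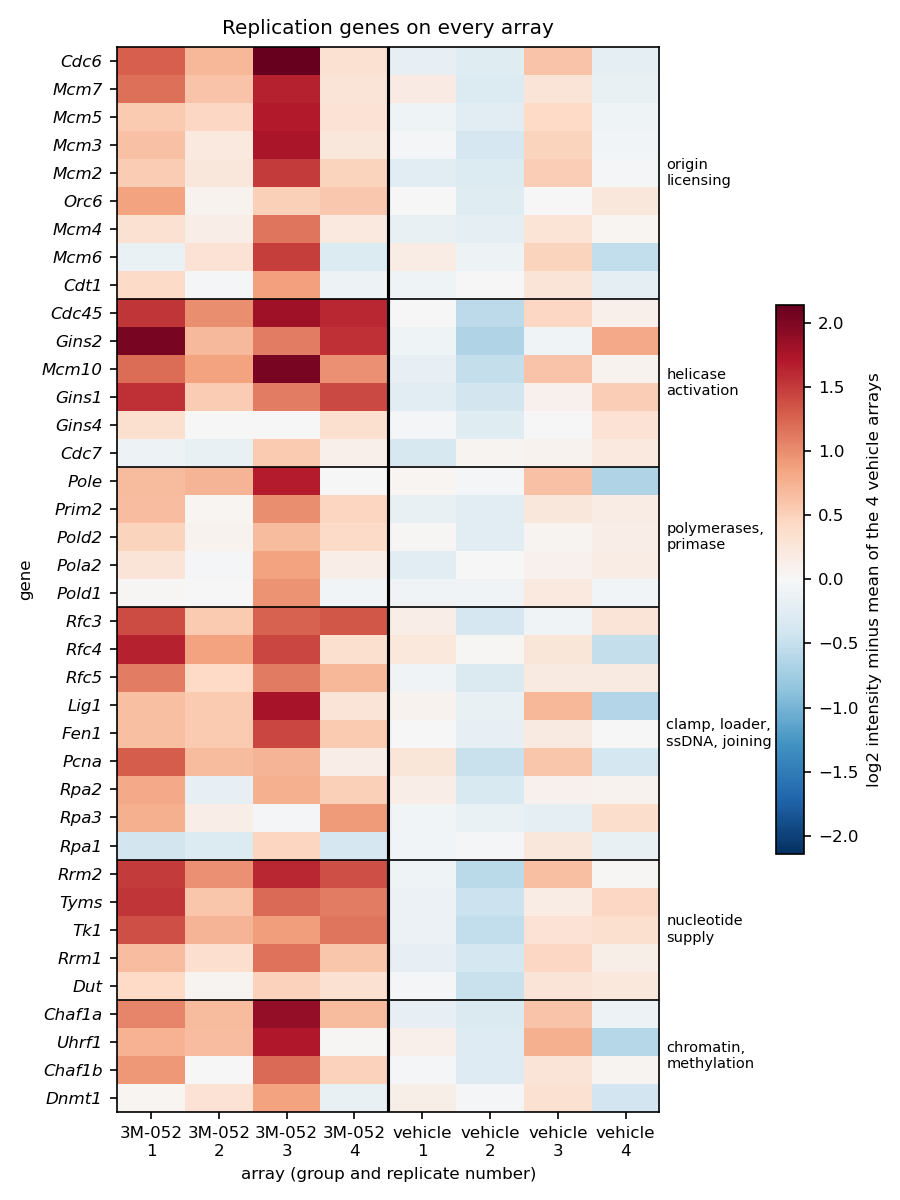
Log2 intensity of the 38 tested members (rows) on the 8 arrays (columns), each gene set against the mean of its 4 vehicle arrays; red is higher, blue is lower, and the black vertical line parts 3M-052 (left) from vehicle (right). 3M-052 replicate 3 is the darkest column in the licensing genes, and Cdc45, Gins1, Gins2, Mcm10, Rrm2, Tyms and Tk1 are red on all 4 3M-052 arrays.

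Arrays differed within the groups. Averaged over the 38 members, the log2 intensity of replicates 1 to 4 was 9.51, 9.09, 9.88 and 9.21 after 3M-052 and 8.67, 8.45, 9.02 and 8.72 after vehicle, so that the group ranges of this mean did not overlap. The 3M-052 array with the highest level was replicate 3 in 27 members, replicate 1 in 9 and replicate 4 in 2. Among vehicle arrays it was replicate 3 in 25 members, replicate 4 in 12 and replicate 1 in 1. In 31 of 38 members all 4 same-numbered pairs were higher after 3M-052. This count was not made over all probes, so it does not set the members apart, and the pairing was inferred from these arrays. The calls rest on few mice: leaving out replicate 1 of either group, or vehicle replicate 2, left 2 calls each time (Cdc45 and Rrm2), leaving out vehicle replicate 3 left 6, and the other left-out arrays gave 7 to 11. Cdc45 and Rrm2 passed in all 8 of these fits. With an unpaired Student's test, as in the methods, 17 members were higher before Benjamini-Hochberg adjustment and 0 after it.

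Markers of cell types differed as well. Of 7 plasma cell genes, 6 rose, and the mean log2 intensity of the 7 was 8.97 to 9.83 after 3M-052 and 7.86 to 8.40 after vehicle. Among the 6, Tnfrsf17 and Derl3 were detected on 4 of 4 3M-052 arrays and 1 of 4 vehicle arrays. They met the detection filter through the group where they are high, so their rise is given as a description. Of 8 T cell genes, 5 fell (7 with the replicate block), with means of 10.26 to 10.84 after 3M-052 and 11.17 to 11.59 after vehicle. Of 5 B cell genes, 0 passed (means of 10.87 to 11.14 after 3M-052 and 10.88 to 11.00 after vehicle). Of 6 germinal center B cell genes, 0 passed (1 at an unadjusted p under 0.05), with a median log2 fold change of -0.019. That 1 gene, Gcsam, was lower and was detected on 0 of 4 3M-052 arrays and 4 of 4 vehicle arrays. Of 4 dendritic cell genes, Siglech fell (-1.44, adjusted p = 0.031), as did Alas2 among 2 erythroid genes (-1.28, adjusted p = 0.0087). With the replicate block, the dendritic cell gene Ccr7 was also lower (-0.56, adjusted p = 0.019). Of the natural killer, myeloid, keratinocyte and stromal genes, 0 passed without the block (3 of 16 at an unadjusted p under 0.05). With it, Prf1 (-0.53, adjusted p = 0.025) and Krt14 (-2.28, adjusted p = 0.017) passed. Fat cell genes passed in 0 of 7 cases (4 lower at an unadjusted p under 0.05), with a median log2 fold change of -2.08. Their means were 5.43 to 7.58 after 3M-052 and 6.31 to 9.73 after vehicle. When the fat mean was added to the fit as a covariate, 0 of the 38 members passed, against 144 of 19462 probes higher and 23 lower. The members' median log2 fold change was then 0.52. Melanocyte genes, 0 of 4 past the threshold (2 lower at an unadjusted p under 0.05), had a median log2 fold change of -1.61. They averaged 4.84 to 5.84 after 3M-052, 9.84 on vehicle replicate 3 and 5.36 to 6.14 on the other vehicle arrays. The part of any of these in the members' difference was not tested beyond the covariate.

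**Figure D2:**
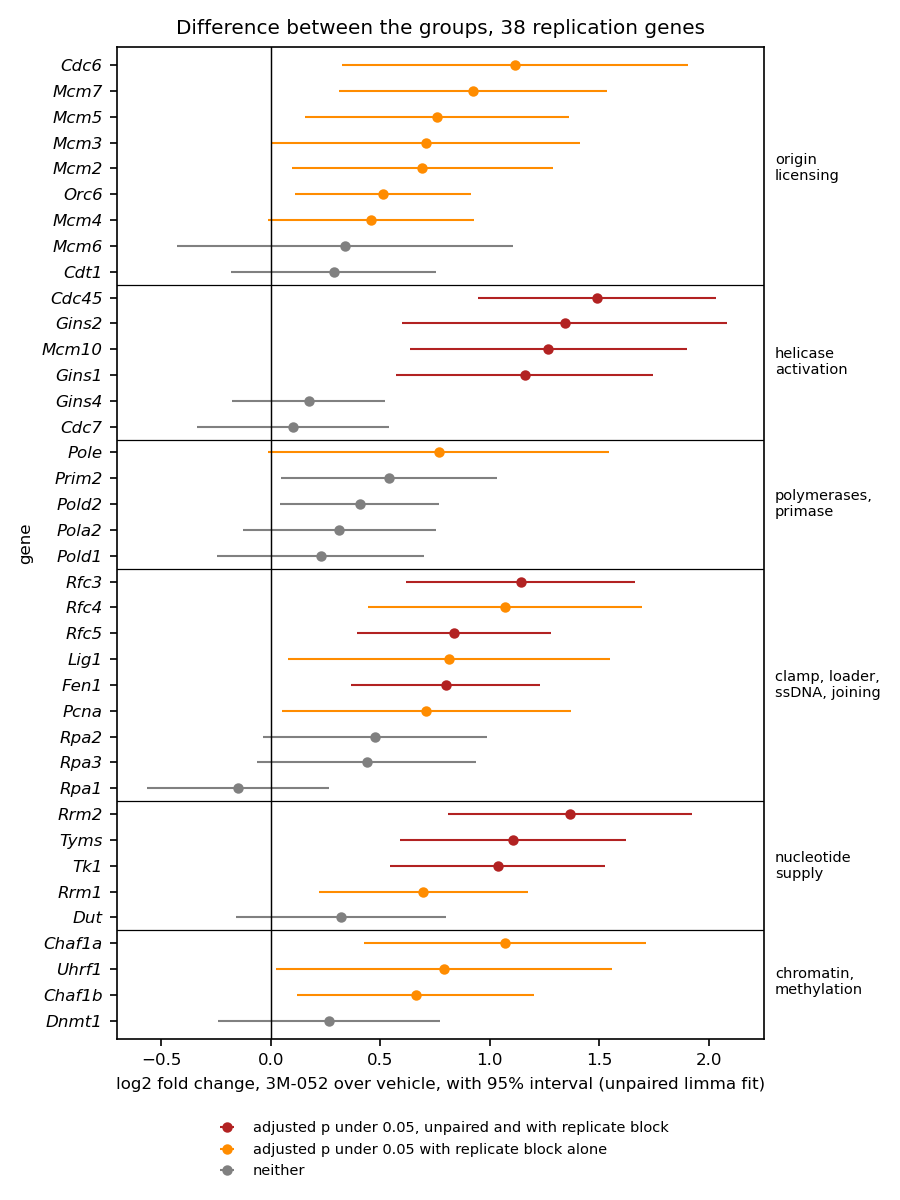
Log2 fold change of each tested member, 3M-052 over vehicle, with its 95% interval from the unpaired limma fit, ordered by size within 6 functional groups; 10 genes (dark red) passed with and without the replicate block, 15 (orange) with the block, and 13 (grey) in neither fit. Cdc45, at 1.49, is farthest to the right, and Rpa1, at -0.15, is the 1 point left of 0 (0.13 with arrays centred on their medians).

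The promoters of the members are shown for the genes with the lowest adjusted p in the licensing, polymerase, nucleotide supply and chromatin groups, and for Rfc3, the called gene whose promoter holds E2F letters (added after its values were seen). They come from RefSeq (GRCm38.p6) and run, 5′ to 3′ on the gene's strand, through the 250 bases before the transcription start and the first 50 after it. Capitals mark E2F letters (TTTCCCGC, TTTGGCGC, TTTGCCGC or TTTCGCGC), CHR letters (TTTGAA or TTCGAA, the kind of element bound by the DREAM complex) and CCAAT (the NF-Y box), on either strand. Where matches overlap or adjoin, the capitals run on, as in the Mcm7 stretch TTTCGCGCCAAT, where an E2F and a CCAAT match share a base. The windows are chr5:138171834-138172133 (minus strand), chr5:151651159-151651458 (minus), chr11:5878207-5878506 (minus), chr12:24708004-24708303 (plus) and chr17:56040166-56040465 (plus). For Mcm7 and Pold2, with 2 promoters each in the table, the one nearer the annotated 5′ end of the gene was taken.
Mcm7 promoter: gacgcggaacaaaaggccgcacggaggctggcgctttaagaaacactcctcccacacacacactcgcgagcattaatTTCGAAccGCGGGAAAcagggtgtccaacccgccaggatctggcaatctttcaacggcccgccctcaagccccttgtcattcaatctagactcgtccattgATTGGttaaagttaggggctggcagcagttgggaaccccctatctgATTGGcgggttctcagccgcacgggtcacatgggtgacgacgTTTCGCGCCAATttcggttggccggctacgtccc
Rfc3 promoter: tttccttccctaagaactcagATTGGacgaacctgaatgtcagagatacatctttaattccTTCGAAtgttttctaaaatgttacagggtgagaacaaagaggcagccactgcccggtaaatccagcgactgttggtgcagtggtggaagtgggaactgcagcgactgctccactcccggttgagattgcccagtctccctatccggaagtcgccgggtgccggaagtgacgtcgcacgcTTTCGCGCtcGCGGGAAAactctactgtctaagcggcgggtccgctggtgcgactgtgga
Pold2 promoter: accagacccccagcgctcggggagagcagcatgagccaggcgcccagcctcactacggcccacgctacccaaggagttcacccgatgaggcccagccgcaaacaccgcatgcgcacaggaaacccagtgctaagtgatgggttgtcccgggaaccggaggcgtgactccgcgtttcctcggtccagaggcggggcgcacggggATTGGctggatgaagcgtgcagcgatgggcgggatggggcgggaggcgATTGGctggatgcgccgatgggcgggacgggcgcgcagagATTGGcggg
Rrm2 promoter: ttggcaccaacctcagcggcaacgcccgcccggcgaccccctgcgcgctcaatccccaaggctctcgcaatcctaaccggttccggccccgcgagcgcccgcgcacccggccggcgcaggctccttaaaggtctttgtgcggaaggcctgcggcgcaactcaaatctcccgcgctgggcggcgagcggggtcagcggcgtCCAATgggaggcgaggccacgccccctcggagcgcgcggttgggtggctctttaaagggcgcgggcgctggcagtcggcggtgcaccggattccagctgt
Chaf1a promoter: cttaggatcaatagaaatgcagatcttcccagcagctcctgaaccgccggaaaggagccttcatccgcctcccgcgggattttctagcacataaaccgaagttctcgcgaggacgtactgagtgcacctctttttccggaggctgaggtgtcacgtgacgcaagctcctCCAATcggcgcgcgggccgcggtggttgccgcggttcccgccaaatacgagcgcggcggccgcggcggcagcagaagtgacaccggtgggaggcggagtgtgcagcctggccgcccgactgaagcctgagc

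Mcm7 and Rfc3 each held 2 E2F matches and 1 CHR match. Of the letters searched, the windows shown for Pold2, Rrm2 and Chaf1a held CCAAT alone. Only exact matches were counted, so sites spelled otherwise were not marked. Promoters were in the table for 37 of the 44 members (not Gmnn, Mcm4, Gins1, Gins2, Gins4, Prim2 and Pole). The E2F letters were found in 14 of these 37 genes, against 704 of 27025 genes over the whole table (2.605%). They were Orc1, Cdc6, Cdt1, Mcm3, Mcm5, Mcm6, Mcm7, Pola1, Pold1, Pole2, Rfc3, Lig1, Uhrf1 and Dnmt1. In the licensing group 7 of 10 genes held them, and in the nucleotide supply group, where 3 of 5 genes rose, 0 of 5 did. Among called members with a listed promoter, 1 of 8 held the letters, and of the tested members that were not called 10 of 24 did. The CHR letters were in 8 of 37 genes (21.6%, against 21.7% over the table), and CCAAT was in 23 of 37 (62.2%, against 41.1%). These are counts of letters in a window and say nothing of binding.

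**Figure D3:**
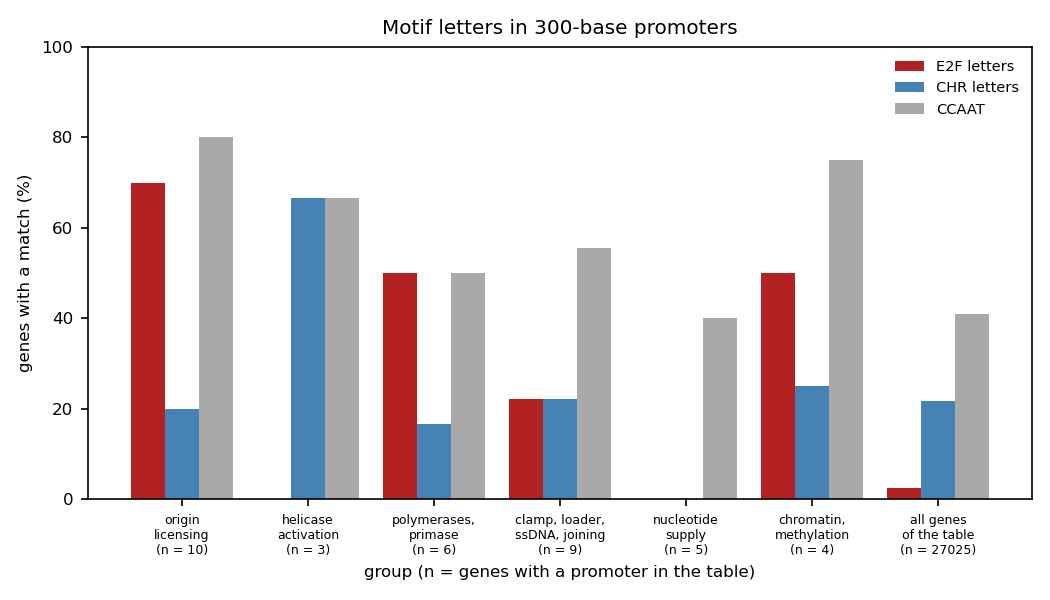
Share of genes (vertical axis, %) whose 300-base RefSeq promoter holds E2F letters (red), CHR letters (blue) or CCAAT (grey), for the 6 groups of members and, at the right, for all 27025 genes of the table. E2F letters are in 7 of 10 genes of the licensing group and in 0 genes of the helicase activation and nucleotide supply groups, against 2.605% over the table.

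The helicase activators had the largest median difference of the 6 groups. Of 6 tested members, 4 rose, and the median log2 fold change was 1.21. CDC45 joins the MCM ring to form the working helicase, and Cdc45 had log2 intensities of 8.55, 8.01, 8.82 and 8.63 after 3M-052 and 7.03, 6.46, 7.45 and 7.12 after vehicle (replicates 1 to 4 in this order, here and below). Every 3M-052 array was above every vehicle array, replicate 2 was lowest in both groups, and the difference was 2.81-fold (log2 fold change 1.49, standard error 0.25, adjusted p = 0.0058 from limma and an exact two-sided permutation p of 0.029, below which 4 arrays against 4 cannot go). The same-numbered arrays differed by 1.53, 1.55, 1.37 and 1.51, a narrower range than that within either group. MCM10 helps the ring to start unwinding, and Mcm10 was at 9.46, 9.13, 10.29 and 9.25 after 3M-052 and 8.09, 7.76, 8.88 and 8.34 after vehicle (log2 fold change 1.27, standard error 0.29, adjusted p = 0.029). The groups of Mcm10 did not overlap, with replicate 3 highest in both, and its second probe gave a log2 fold change of 1.25 (adjusted p = 0.044). Of the 3 GINS members tested, 2 rose. Gins1 was at 8.75, 7.72, 8.28 and 8.59 after 3M-052 and 6.94, 6.79, 7.27 and 7.71 after vehicle, again without overlap (log2 fold change 1.16, standard error 0.27, adjusted p = 0.031). Gins2 was at 9.17, 7.83, 8.23 and 8.70 after 3M-052 and 7.05, 6.50, 7.07 and 7.95 after vehicle (log2 fold change 1.34, standard error 0.34, adjusted p = 0.045). Vehicle replicate 4 of Gins2 lay above 3M-052 replicate 2, so that the groups overlapped. Of the 2 other Gins2 probes, 1 passed (1.35, adjusted p = 0.018) and 1 passed with the block (1.21, adjusted p = 0.062; with the block, adjusted p = 0.0031). Gins4, the subunit SLD5, had a log2 fold change of 0.17 (95% interval -0.17 to 0.52, adjusted p = 0.60). CDC7, with its partner DBF4, phosphorylates the loaded MCM ring, and Cdc7 was at 8.72, 8.66, 9.38 and 8.92 after 3M-052 and 8.47, 8.88, 8.89 and 9.03 after vehicle. Its groups overlapped widely, and its log2 fold change of 0.10 (95% interval -0.34 to 0.54, adjusted p = 0.83) was the smallest in size in the group and was -0.052 without 3M-052 replicate 3.

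Nucleotide supply genes were next. Of 5 tested members 3 rose, and the median log2 fold change was 1.04. RRM2 is the S phase subunit of ribonucleotide reductase, which makes deoxyribonucleotides, and Rrm2 was at 8.94, 8.43, 9.06 and 8.84 after 3M-052 and 7.36, 6.88, 8.10 and 7.47 after vehicle. All 4 3M-052 arrays lay above all 4 vehicle arrays, and the difference was 2.58-fold (log2 fold change 1.37, standard error 0.25, adjusted p = 0.011, limma; exact permutation p = 0.029). A second Rrm2 probe gave 1.93 (adjusted p = 0.0052). TYMS makes thymidylate from deoxyuridylate, and Tyms was at 10.33, 9.40, 10.01 and 9.89 after 3M-052 and 8.68, 8.34, 8.95 and 9.24 after vehicle. The Tyms groups did not overlap, with replicate 1 highest after 3M-052 and replicate 4 highest after vehicle (log2 fold change 1.11, standard error 0.24, adjusted p = 0.021). Of its other probes, 1 gave 1.41 (adjusted p = 0.020), and a dimmer one, detected on 3 of 4 3M-052 arrays and 1 of 4 vehicle arrays, gave 0.33 (adjusted p = 0.33). TK1 salvages thymidine, and Tk1 was at 9.96, 9.31, 9.49 and 9.73 after 3M-052 and 8.46, 8.06, 8.89 and 8.93 after vehicle. Again no 3M-052 array reached down to a vehicle array (log2 fold change 1.04, standard error 0.22, adjusted p = 0.023). The Tk1 probes differed, since a second one had 0.73 and passed with the block alone (adjusted p = 0.18; with the block, adjusted p = 0.042), and another one, detected on 2 of 4 arrays of each group, had -0.0033 (adjusted p = 0.996). RRM1 is the large subunit of the reductase, whose catalytic site it holds, and Rrm1 was at 9.80, 9.51, 10.30 and 9.74 after 3M-052 and 8.96, 8.76, 9.57 and 9.26 after vehicle. Vehicle replicate 3 lay above 3M-052 replicate 2, and Rrm1 passed with the replicate block (adjusted p = 0.0068) and not without it (log2 fold change 0.70, standard error 0.22, adjusted p = 0.092). DUT removes dUTP so that it is not built into DNA, and Dut was at 6.93, 6.55, 6.99 and 6.82 after 3M-052 and 6.48, 6.03, 6.78 and 6.72 after vehicle, with overlap (log2 fold change 0.32, 95% interval -0.16 to 0.80, adjusted p = 0.45).

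The sliding clamp, its loader, the single-strand binding proteins and the joining enzymes were split. Of 9 tested members 3 rose, and the median log2 fold change was 0.80. RFC3, RFC4 and RFC5 are subunits of the clamp loader that opens PCNA onto DNA. Rfc3 was at 6.72, 5.88, 6.58 and 6.64 after 3M-052 and 5.46, 4.96, 5.25 and 5.60 after vehicle, without overlap (log2 fold change 1.14, standard error 0.24, adjusted p = 0.020). Rfc5 was at 9.45, 8.77, 9.46 and 9.06 after 3M-052 and 8.28, 8.04, 8.54 and 8.54 after vehicle and did not overlap either (log2 fold change 0.84, standard error 0.20, adjusted p = 0.037), while its second, dimmer probe had 0.42 (adjusted p = 0.36). Rfc4 was at 9.37, 8.58, 9.15 and 8.07 after 3M-052 and 7.95, 7.74, 7.98 and 7.22 after vehicle. Its groups did not overlap and the difference was 2.10-fold, yet it did not pass without the block (log2 fold change 1.07, standard error 0.29, adjusted p = 0.055), and it passed with it (adjusted p = 0.0026). Its second, dimmer probe, detected on all 8 arrays, had 0.23 and passed in neither fit (adjusted p = 0.61; with the block, adjusted p = 0.43). FEN1 trims the flaps of Okazaki fragments before DNA ligase 1 seals them. Fen1 was at 11.11, 11.04, 11.90 and 11.03 after 3M-052 and 10.46, 10.29, 10.66 and 10.47 after vehicle, with 3M-052 replicate 3 well above the other 7 arrays and still no overlap without it (log2 fold change 0.80, standard error 0.20, adjusted p = 0.041). Lig1 (log2 fold change 0.81, adjusted p = 0.20) and Pcna (0.71, adjusted p = 0.21) passed with the block (adjusted p = 0.0040 and 0.048). Of 3 other Lig1 probes 2 passed with the block, and 1, detected on 3 of 4 3M-052 arrays and 2 of 4 vehicle arrays, passed in neither fit (0.22, adjusted p = 0.75). The RPA subunits, which coat single-stranded DNA, did not pass in either fit by their brightest probes. Rpa1 was at 12.15, 12.25, 13.00 and 12.18 after 3M-052 and 12.49, 12.51, 12.79 and 12.39 after vehicle. It was higher after 3M-052 in 1 of 4 same-numbered pairs, and its log2 fold change of -0.15 (95% interval -0.56 to 0.27, adjusted p = 0.72) was the 1 negative value of the list, though it was 0.13 with arrays centred on their medians. Rpa2 was at 8.84, 7.85, 8.80 and 8.55 after 3M-052 and 8.19, 7.71, 8.13 and 8.12 after vehicle (log2 fold change 0.48, adjusted p = 0.28), and its dimmer probes differed. One, detected on 4 of 4 3M-052 arrays and 3 of 4 vehicle arrays, had 0.61 and passed with the block alone (adjusted p = 0.29; with the block, adjusted p = 0.038). The other, detected on 2 of 4 3M-052 arrays and 4 of 4 vehicle arrays, had -0.0094 (adjusted p = 0.99). Rpa3 had 0.44 (adjusted p = 0.31).

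**Figure D4:**
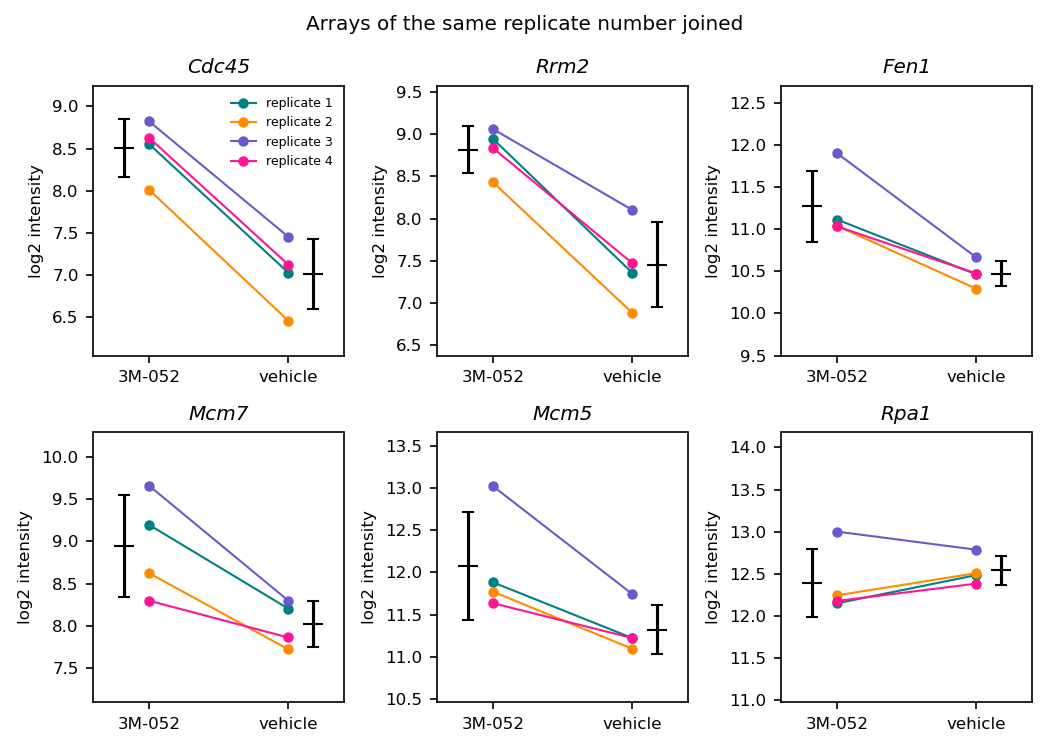
Log2 intensity (vertical axes, each spanning the same number of log2 units) of 6 members on the 4 3M-052 arrays (left) and the 4 vehicle arrays (right), with same-numbered arrays joined; black bars are means with SD. The 4 lines of Cdc45 run nearly parallel, those of Mcm5 and Mcm7 are steepest for replicate 3, and Rpa1 is higher after 3M-052 in replicate 3 alone.

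Origin licensing gained the most calls from the replicate block, by count. Of 9 tested members 0 passed without the block (6 at an unadjusted p under 0.05) and 7 passed with it, all higher. The median log2 fold change was 0.69. In the chromatin group, 0 of 4 passed without the block and 3 of 4 with it. Over all probes, 2.81% were called higher without the block and 6.33% with it. MCM7 is 1 subunit of the helicase ring, and Mcm7 was at 9.20, 8.62, 9.66 and 8.30 after 3M-052 and 8.20, 7.72, 8.30 and 7.86 after vehicle. The groups overlapped through vehicle replicate 3 and 3M-052 replicate 4, which were level (log2 fold change 0.92, standard error 0.28, adjusted p = 0.083; with the block, adjusted p = 0.0077). CDC6 loads the ring, and Cdc6 was at 7.88, 7.30, 8.74 and 6.93 after 3M-052 and 6.42, 6.34, 7.21 and 6.41 after vehicle. Its difference was the largest of the group (log2 fold change 1.12, standard error 0.36, adjusted p = 0.10; with the block, adjusted p = 0.0076), and vehicle replicate 3 stood above its group and above 3M-052 replicate 4. ORC6 belongs to the complex that marks the origin, and Orc6 was at 10.58, 9.80, 10.23 and 10.29 after 3M-052 and 9.71, 9.46, 9.73 and 9.96 after vehicle (log2 fold change 0.51, standard error 0.18, adjusted p = 0.14; with the block, adjusted p = 0.031). Mcm5 was at 11.88, 11.77, 13.02 and 11.63 after 3M-052 and 11.22, 11.09, 11.74 and 11.22 after vehicle, with replicate 3 more than 1 log2 unit above the other 3M-052 arrays (log2 fold change 0.76, standard error 0.27, adjusted p = 0.14; with the block, adjusted p = 0.010). Mcm5 also passed without the block when arrays were centred on their medians. Mcm2 (0.69) and Mcm3 (0.71) passed with the block (adjusted p = 0.0083 and 0.027), and Mcm6 (0.34, 95% interval -0.43 to 1.11) passed in neither fit and was at -0.043 without 3M-052 replicate 3. CDT1 works with CDC6, and Cdt1 was at 10.72, 10.27, 11.18 and 10.20 after 3M-052 and 10.21, 10.31, 10.58 and 10.12 after vehicle, with the smallest difference of the group (0.29, 95% interval -0.18 to 0.75, adjusted p = 0.50).

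The 6 ring subunits Mcm2 to Mcm7 were highest on the same array of each group. Their mean log2 intensity was 10.34, 10.15, 11.36 and 10.02 after 3M-052 and 9.79, 9.57, 10.23 and 9.68 after vehicle. Replicate 3 was the highest array of its group in 6 of 6 genes after 3M-052 and in 6 of 6 after vehicle. Cdc45 and the tested GINS genes averaged 9.32, 8.51, 8.95 and 9.18 after 3M-052 and 7.86, 7.49, 8.06 and 8.39 after vehicle, with replicate 1 highest after 3M-052. Replicate 1 was the highest 3M-052 array in 2 of these 4 genes, Gins1 and Gins2. Cdc45 itself was highest on replicate 3 in both groups, like the ring, and differed most in pair 2 (1.55). The median difference of same-numbered arrays was 0.67, 0.55, 1.14 and 0.36 for the ring in pairs 1 to 4, and 1.66, 1.13, 1.09 and 0.82 for Cdc45 and GINS, so that pair 3 held the largest value for the ring and pair 1 for Cdc45 and GINS. This difference between the gene sets was not tested.

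Mcm4 was read by 2 probes, 1 bright and 1 dim. The brighter one was at 12.07, 11.89, 12.89 and 11.95 after 3M-052 and 11.58, 11.56, 12.04 and 11.79 after vehicle (log2 fold change 0.46, standard error 0.21, adjusted p = 0.26; with the block, adjusted p = 0.044). The dimmer one was at 5.65, 5.20, 6.42 and 5.98 after 3M-052 and 4.64, 4.52, 4.62 and 4.73 after vehicle, was detected on 4 of 4 3M-052 arrays and 0 of 4 vehicle arrays (adjusted p = 0.020), which gives at least 1.76-fold higher after 3M-052. It met the detection filter through the 3M-052 arrays alone, so its p is given as a description. Of the 2 licensing genes below the filter, Orc1 was detected on 3M-052 replicate 3 alone, at an unnormalized intensity of 128, and lay at 59.5 to 73.6 on the rest of the 3M-052 group and at 54.1 to 69.3 in the vehicle group. Orc2 was detected on 1 array of each group, with intensities of 65.0 to 77.7 after 3M-052 and 62.3 to 76.0 after vehicle.

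Polymerases and primase had the smallest median difference of the 6 groups. Of 5 tested members 0 passed, 1 (Pole) passed with the block, and the median log2 fold change was 0.41. POLD2 is an accessory subunit of the lagging-strand polymerase delta, and Pold2 was at 9.90, 9.50, 10.10 and 9.83 after 3M-052 and 9.45, 9.19, 9.49 and 9.57 after vehicle (log2 fold change 0.41, standard error 0.17, adjusted p = 0.19). PRIM2 is the large subunit of primase, and Prim2 was at 8.22, 7.61, 8.56 and 8.02 after 3M-052 and 7.40, 7.32, 7.80 and 7.73 after vehicle (log2 fold change 0.54, standard error 0.23, adjusted p = 0.20). In both genes all 4 same-numbered pairs were higher after 3M-052, and the groups overlapped. Prim2's second, dimmer probe had 0.79 and passed with the block alone (adjusted p = 0.12; with the block, adjusted p = 0.018). POLE is the catalytic subunit of the leading-strand polymerase epsilon, and Pole was at 6.94, 6.99, 7.95 and 6.25 after 3M-052 and 6.32, 6.23, 6.89 and 5.63 after vehicle, with replicate 3 highest and replicate 4 lowest in both groups (log2 fold change 0.77, standard error 0.36, adjusted p = 0.25; with the block, adjusted p = 0.016). POLA2 is the regulatory subunit of polymerase alpha, which works with primase, and Pola2 was at 9.21, 8.91, 9.79 and 9.07 after 3M-052 and 8.70, 8.92, 9.02 and 9.09 after vehicle. Pairs 2 and 4 of Pola2 hardly differed (log2 fold change 0.31, 95% interval -0.13 to 0.75, adjusted p = 0.42). POLD1 is the catalytic subunit of polymerase delta, and Pold1 was at 10.90, 10.87, 11.84 and 10.81 after 3M-052 and 10.80, 10.80, 11.09 and 10.82 after vehicle. Replicate 3 stood above the rest of its group in both groups of Pold1, and its log2 fold change of 0.23 (adjusted p = 0.61) was -0.016 (adjusted p = 0.96) once that 3M-052 array was left out.

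Chromatin assembly and maintenance methylation had a median log2 fold change of 0.73, with 0 of 4 past the threshold and 3 of 4 past it with the block. CHAF1A and CHAF1B are subunits of CAF-1, which places histones on new DNA. Chaf1a was at 8.71, 8.34, 9.56 and 8.34 after 3M-052 and 7.49, 7.35, 8.27 and 7.55 after vehicle. No 3M-052 array fell below a vehicle array, with a 2.10-fold difference (log2 fold change 1.07, standard error 0.29, adjusted p = 0.062; with the block, adjusted p = 0.0020), and Chaf1a passed without the block when vehicle replicate 3 was left out (adjusted p = 0.042). Chaf1b was at 9.74, 8.82, 10.02 and 9.29 after 3M-052 and 8.77, 8.52, 9.08 and 8.86 after vehicle (log2 fold change 0.66, standard error 0.25, adjusted p = 0.15; with the block, adjusted p = 0.022). UHRF1 finds hemimethylated DNA and brings in the methyltransferase DNMT1. Uhrf1 was at 10.87, 10.78, 11.83 and 10.15 after 3M-052 and 10.23, 9.85, 10.88 and 9.51 after vehicle, where replicate 3 was highest and replicate 4 lowest in both groups (log2 fold change 0.79, standard error 0.35, adjusted p = 0.23; with the block, adjusted p = 0.0030). Dnmt1 was at 9.66, 9.92, 10.48 and 9.46 after 3M-052 and 9.74, 9.57, 9.94 and 9.21 after vehicle, with overlap (log2 fold change 0.27, 95% interval -0.24 to 0.77, adjusted p = 0.58).

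Other genes of the same pathways had a smaller median difference. Of 69 listed genes outside the 44, 59 were tested, 6 rose and 0 fell (10.2% higher, against 2.81% of all probes), and the median log2 fold change was 0.35. At an unadjusted p under 0.05, 23 were higher and 1 lower (Tk2, log2 fold change -0.41), against 1632 of 19462 probes higher. With the block 20 passed, all higher (33.9%, against 6.33% of all probes). Claspin and TIPIN guard the moving fork. Clspn was at 9.0, 8.54, 9.39 and 8.95 after 3M-052 and 7.60, 7.20, 8.16 and 8.04 after vehicle, without overlap (log2 fold change 1.22, standard error 0.25, adjusted p = 0.018), and Tipin was at 10.65, 10.24, 10.79 and 10.64 after 3M-052 and 10.10, 9.41, 9.78 and 9.86 after vehicle, also without overlap (log2 fold change 0.79, standard error 0.18, adjusted p = 0.028). ASF1B hands histones to CAF-1, and DCTPP1 breaks down surplus deoxynucleotides. Asf1b (log2 fold change 1.09, standard error 0.27, adjusted p = 0.039) and Dctpp1 (log2 fold change 0.88, standard error 0.22, adjusted p = 0.040) both rose, each without overlap. Of 12 tested polymerase and clamp loader subunits, 0 passed (6 at an unadjusted p under 0.05), as did 0 of 12 genes of purine and pyrimidine synthesis (3 at an unadjusted p under 0.05), a list with a median of 0.22. Rrm2b is the reductase subunit used outside S phase. It was at 8.92, 9.05, 8.69 and 9.09 after 3M-052 and 9.22, 9.49, 9.12 and 9.21 after vehicle, lower after 3M-052 on every array than on any vehicle array, and did not pass (log2 fold change -0.32, adjusted p = 0.28). Samhd1, which destroys deoxynucleotides, had 0.12 (adjusted p = 0.74).

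Of the 4 E2F genes tested in this list, 2 rose. E2f1 was at 9.18, 8.97, 9.45 and 9.12 after 3M-052 and 8.08, 8.07, 8.70 and 8.24 after vehicle (log2 fold change 0.91, standard error 0.19, adjusted p = 0.019), and E2f3 was at 8.08, 7.45, 7.70 and 7.90 after 3M-052 and 6.54, 6.51, 6.68 and 7.20 after vehicle (log2 fold change 1.05, standard error 0.22, adjusted p = 0.020). In both genes the groups did not overlap. E2f2 (0.27, adjusted p = 0.50) and E2f4 (0.29, adjusted p = 0.37) did not pass, and E2f7 and E2f8 had no named probe. Leaving out replicate 1 of either group, or vehicle replicate 2, ended the calls of E2f1 and E2f3 (for E2f3, so did leaving out vehicle replicate 3 or 3M-052 replicate 4) and left 0 or 1 call in this list of other genes. Without 3M-052 replicate 4 or vehicle replicate 3 it held 3 calls, and without 3M-052 replicate 2 it held 10.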

How the data were processed

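Tumor-draining lymph nodes of 8 mice were measured on Illumina Ref-6 arrays, after 2 rounds of RNA amplification from 100 ng. The authors deposited 2 tables. One holds the intensity of 45281 probes on each array with a detection p-value, which the authors made with GenomeStudio (version and genome build not given in the sources used here). The other, which served as an alternative, holds normalized intensity values for 21765 probes, and the authors' way of normalizing them is not stated in the sources. On an array, 17817 to 19773 probes (3M-052) and 19094 to 20315 probes (vehicle) reached a detection p under 0.05, at mean intensities of 331 to 461 and 306 to 418. Arrays hold no counts, so their number limits the precision.

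From the deposited intensity, log2 values were made with neqc (offset 16, limma 3.58.1, R 4.3.3), which corrects background through the detection p-values and normalizes by quantiles. A probe was kept where 4 or more of the 8 arrays had a detection p under 0.05 (19462 probes). The comparison used lmFit, then eBayes with its trend option, and Benjamini-Hochberg adjustment over all kept probes, at 0.05. All adjusted p-values, blocked ones included, are from limma. The procedure was also run on simulated data with noise independent between arrays. That differs from these data, where same-numbered arrays correlate, so it gives no measure of the calls made here. Genes were named through the platform annotation, matched by identifier to RefSeq, and read by their brightest kept probe. Of the 21765 probes, 18216 have 1 name, 8 several and 3541 none, and the remaining probes are unnamed here. Where a probe was undetected on every array of a group, the bound sets the other group against the mean, per array, of the lowest signal among detected probes or the probe's own value if higher.

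The members, the lists and the rule for named genes were chosen with earlier results of these data known. The rule prints values on every array for the 4 members of lowest adjusted p in a group, for the member with the smallest difference, and for members whose probes differ in call or sign, and names up to 4 called genes of each other list. The comparison itself was unpaired, after the unpaired test of the study's methods. Labels give both groups replicate numbers 1 to 4 without saying what they mark. Deviations of same-numbered arrays from their group means correlated at 0.19, 0.43, 0.25 and 0.57, and each array correlated best with its own number, so the numbers were taken to pair the arrays. Both arrays numbered 4 had the lowest mean intensity of their group (331 after 3M-052 and 306 after vehicle). They also had the highest minimum intensity (45.5 and 44.9). Whether the numbers follow a technical step was not tested. The blocked value is given where it changes the call of a member's brightest probe. The exact permutation test is unpaired. Alternatives concerned background, normalization, filter, variance model, array weights, test, probe choice, a fat marker covariate and left-out arrays. Promoter letters were searched in RefSeq promoters.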

Additional observations from a re-analysis of the deposited data

Results flagged for a closer look

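In 6 of 76 groups of 4 arrays (each tested member in each group), 1 array stood so far from its nearest neighbour that the gap passed Dixon's 95% limit, which about 1 in 20 groups does by chance. Replicate 3 was the high array in 5 of them. For Pold1 its gap took 0.918 of the group's range after 3M-052 (11.84, against 10.81 to 10.90 on the others) and 0.908 after vehicle (11.09, against 10.80 to 10.82). For Fen1 after 3M-052 the gap took 0.907 of the range (11.90, against 11.03 to 11.11), and for Rpa1 after 3M-052 it took 0.889 (13.00, against 12.15 to 12.25). For Cdc6 after vehicle it took 0.909 (7.21, against 6.34 to 6.42). The sixth was Rpa2 after vehicle, where replicate 2 was low and the gap took 0.854 of the range (7.71, against 8.12 to 8.19). Vehicle replicate 3 was also the array with a high melanocyte mean (9.84 on the log2 scale). Its part in these values was not tested.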

How the results depend on the processing

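Of 38 members, 10 were called higher without background correction, with normexp alone, with detection required on all 8 arrays and in the deposited normalized table (the same 10 genes in each), 11 with median centring, 8 without the variance trend or with the mean of a gene's probes, and 7 of 40 without a filter on dim probes, which left 255 probes lower in all. The members' median ran from 0.49 to 0.87 over all settings run, and 0 members fell in any. Array weights gave 11 members, 10 other pathway genes and 838 probes higher and 869 lower. The replicate block gave 25 members, 20 pathway genes and 1232 probes higher and 1499 lower. The methods' t-test gave 17 members higher and 0 lower at its unadjusted threshold, and after Benjamini-Hochberg 0 members, 0 pathway genes and 118 probes higher and 98 lower. The fat marker covariate gave 0 members, 0 pathway genes and 144 probes higher and 23 lower. Leaving out each array gave 2 to 11 members, 0 to 10 pathway genes, 283 to 670 probes higher and 118 to 683 lower. As alternatives chosen after seeing the data, leaving out both arrays numbered 4, which had the highest minimum intensity, gave 8 members and 2 pathway genes, and leaving out both numbered 3 gave 7 members, 3 pathway genes, 357 probes higher and 171 lower. Among the members and the pathway genes named, signs turned only in genes that were not called: Rpa1 at 0.13 with median centring, Cdc7 at -0.096 with the covariate and -0.027 without both arrays numbered 3, Samhd1 at -0.049 without both numbered 3, and, with single arrays left out, Cdc7 (-0.052 to 0.19), Mcm6 (-0.043 to 0.55), Pold1 (-0.016 to 0.33) and Samhd1 (-0.0039 to 0.22). In these 4 genes the sign turned without 3M-052 replicate 3, and in Cdc7 also without vehicle replicate 1 (-0.014). The cause of these changes was not tested. Signal over background limits the dim probes of Mcm4, Rfc5, Rpa2, Lig1, Tyms and Tk1, which were undetected on some arrays.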
